A study of Homo sapiens with 14 samples.

Results

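The data are the lists of H3K27me3 peaks from chromatin immunoprecipitation with sequencing (ChIP-seq) in DU145 cells, a line established from human prostate cancer. One list comes from cells with a stable EED knockdown and one from control cells with a scramble construct. Both kinds of cells were selected with puromycin and were precipitated with the same rabbit antibody to H3K27me3 and the same antibody lot. All peaks of both lists are described, 4205 in knockdown cells and 35368 in control cells, together 39573 of the 227479 peaks in the 14 libraries of the series. The other 12 libraries are a knockdown and a control library for each of 6 antibodies, to EED, RING1A, RING1B, BMI1 and, with a rabbit and a mouse antibody, ubiquitylated histone H2A (uH2A). The knockdown titles all carry 1 construct label, so what that construct does apart from EED cannot be told apart from the knockdown. With 1 library a group there is no replicate check of any difference, and no p-value was computed. All intervals are at the 95% level, account for counting error alone and treat peaks as independent. The number of reads behind each list is not known, so the depth of the libraries is unknown.

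H3K27me3 is trimethylation of lysine 27 of histone H3, a mark of repressed chromatin. It is placed by Polycomb repressive complex PRC2, in which EED is the subunit that binds the existing mark and stimulates the methyltransferase, so that the mark spreads into domains far longer than a single nucleosome. PRC1, the complex of RING1A or RING1B with partners such as BMI1, can be recruited to the mark and places uH2A. In differentiated cells the mark is known for covering silent developmental genes.

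In the deposited lists positions are hg19 and run in steps of 25 bp. No annotation of that build was used here, so regions are named by position and no gene is assigned to them. EED itself had 1372 peaks in knockdown cells and 13082 in control cells. The other antibodies had fewer peaks in knockdown cells too. RING1A had 4072 against 56011, RING1B 1739 against 5155 and BMI1 6257 against 20775. The uH2A rabbit antibody had 11327 against 27077 and the uH2A mouse antibody 7160 against 33879. With unknown depth, the fall in EED peaks is therefore not a check specific to EED. H3K27me3 shares its culture description and the writing of chromosome names with RING1A, RING1B and BMI1. EED and both uH2A antibodies share another form of both, and these 2 library sets are kept apart where other antibodies are compared.

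The first comparison asked how much H3K27me3 was left and in what kind of peak. The mark was found in far fewer peaks in knockdown cells, 4205 against 35368 in control cells, a ratio of 0.119 (exact interval 0.115 to 0.123). These peaks covered 0.895 Mb in knockdown cells and 10.4 Mb in control cells, a ratio of 0.0858. The ratio of covered length was lower than that of peak number because knockdown peaks were shorter, with a mean of 213 bp against 295 bp. In a population of cells, fewer cells with the mark and less mark in each cell cannot be told apart. Among peaks that reached the median height of the control list the ratio of peak number was 0.194, although heights are not normalised between the libraries. A fall in peak number was not particular to H3K27me3. The other 6 antibodies together had 31927 peaks in knockdown and 155979 in control cells.

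Long peaks were a smaller part of the knockdown list. Peaks of at least 1000 bp numbered 45 of 4205 in knockdown cells (1.07%, Clopper-Pearson interval 0.782 to 1.43) and 1486 of 35368 in control cells (4.20%, 3.99 to 4.42), which is -3.13 points in share (interval -3.48 to -2.72 by Newcombe's method). Among peaks that reached the median height of the control list the value was -7.37 points. Peaks of this length accounted for 7.57% of the covered length in knockdown cells and for 23.8% in control cells. The median peak was 150 bp long in knockdown cells and 200 bp in control cells. The upper 10% began at 375 bp in knockdown cells and at 575 bp in control cells. The shortest peaks in both lists were 75 bp and made up 13.9% of the knockdown and 11.7% of the control list.

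**Figure D1:**
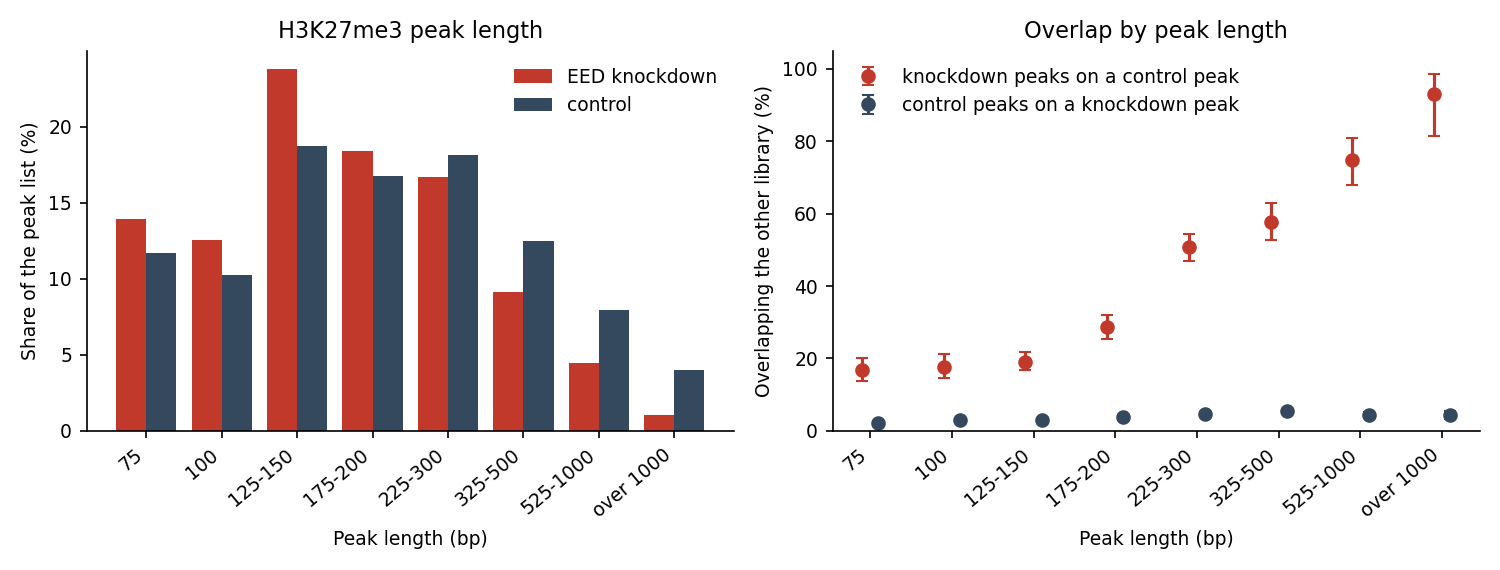
Left, the share of each H3K27me3 peak list (%) in 8 classes of peak length (bp). Right, the share of each class that overlaps a peak of the other library, with 95% Clopper-Pearson intervals as bars, 1 library per group. Knockdown peaks over 1000 bp lay on a control peak in 93.2% of cases, while the control peaks on a knockdown peak stayed between 2.08% and 5.45% in every class.

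The 5 longest peaks of each list show the contrast. The longest knockdown peak, on chromosome 16 at 46403951 to 46407125, was 3175 bp long, and the longest control peak, on chromosome 12 at 113900701 to 113910925, was 10225 bp long. Next among the knockdown peaks came chr7:56438176-56440725, chr4:49514851-49517175, chr16:46387851-46390100 and chrX:58567876-58569975. Control peaks covered between 48.0% and 98.4% of these 5 knockdown peaks. Next among the control peaks came chr9:79628601-79634950, chr1:152079726-152085550, chr17:74070776-74076600 and chr12:106976451-106981625. Of the 5 control peaks, the one on chromosome 1 alone met knockdown H3K27me3 peaks, 3 of them, which covered 725 of its 5825 bp. The peak on chromosome 12 of 10225 bp was 3654850 bp from the nearest knockdown peak. So the longest peaks left in knockdown cells lay at places marked in control cells, while most of the longest control peaks had no counterpart.

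Peaks were then joined into domains when no more than 1, 3 or 10 kb separated neighbours. With 10 kb, 4205 knockdown peaks formed 892 domains and 35368 control peaks formed 7188, a ratio of 0.124 (exact interval 0.116 to 0.133). With 3 kb there were 1499 knockdown and 11455 control domains, and with 1 kb 2383 and 17179. Isolated peaks were more common among knockdown domains. At 10 kb, 58.0% of knockdown domains (54.6 to 61.2) and 36.6% of control domains (35.5 to 37.7) held a single peak. At 1 kb these shares were 71.9% in knockdown and 62.3% in control cells. The median gap to the next peak was 1375 bp in knockdown and 950 bp in control cells. Joining at a fixed distance can leave more single peaks and less filled domains in a shorter list. The number of domains and the share of single peaks were not compared at equal numbers of peaks.

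At the other end, the knockdown list was concentrated in a few dense domains. Domains of at least 20 peaks, joined within 10 kb, numbered 50 in knockdown cells and 288 in control cells. They held 50.8% of knockdown peaks and 61.4% of the knockdown covered length. In control cells such domains held 31.8% of peaks and 35.8% of the covered length. In knockdown cells 30 domains, 3.36% of all, accounted for 50% of the covered length, whereas 501 domains, 6.97%, did so in control cells. The middle of the range was thinner in knockdown cells, where domains of 5 to 9 peaks held 8.74% of the covered length and those of 10 to 19 peaks 11.4%, against 20.2% and 21.8% in control cells. With 3 kb the dense domains contained 42.2% of the covered length in knockdown cells and 18.1% in control cells. With 1 kb they contained 15.8% and 5.71%, the same order. Other measures of concentration depended on the joining distance. With 1 kb, 50% of the covered length lay in 8.14% of knockdown and 8.07% of control domains. Domains of at least 5 peaks then held 26.8% of knockdown and 33.4% of control peaks. Domains of more than 1 peak were also less filled in knockdown cells, again without equal numbers of peaks. At 10 kb a median of 8.93% of their span lay under peaks, against 22.6% in control cells.

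**Figure D2:**
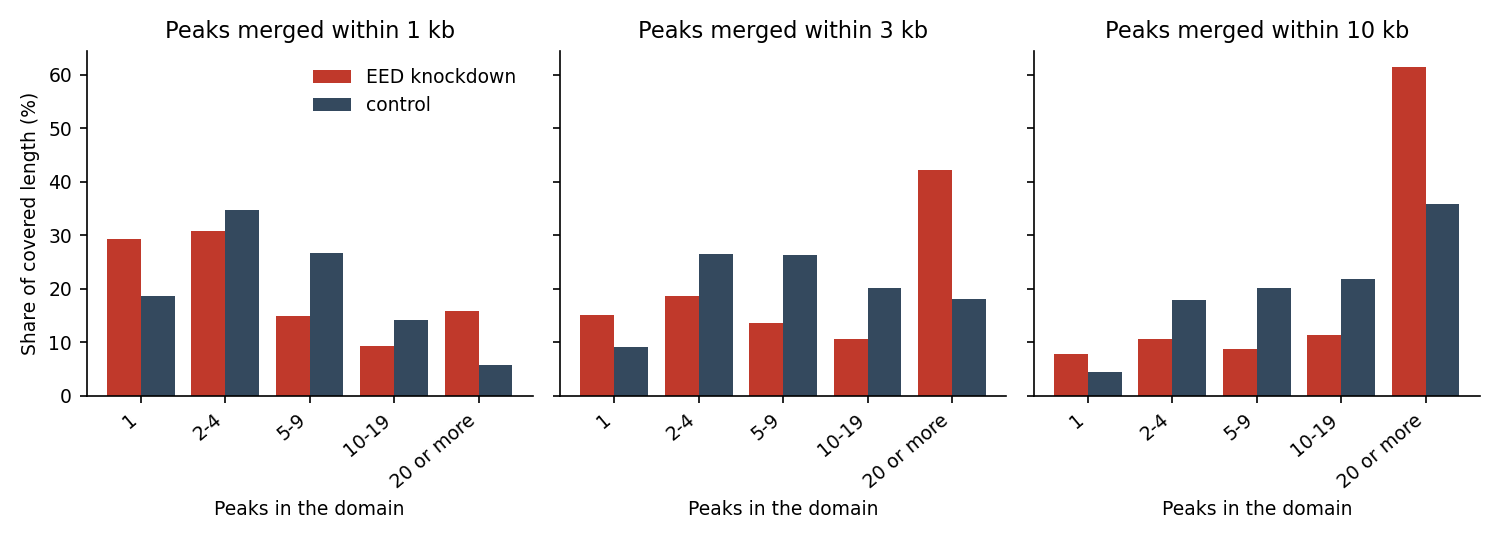
Share of the covered H3K27me3 length (%) by the number of peaks in a domain, for peaks joined within 1, 3 and 10 kb, in knockdown and control cells with 1 library each. At 10 kb, domains of 20 or more peaks contained 61.4% of the length in knockdown cells and 35.8% in control cells.

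The control domains with the most covered length were large. The 10 leading ones held 566.9 kb, 5.43% of the control total, and 7 of them had no knockdown H3K27me3 peak. Having none was not particular to them. Of all 7188 control domains 4.74% held a knockdown peak, and of the 288 with 20 or more peaks 13.9% did. The leading domain had a neighbour on chromosome 17 that was also among the 10. The leading one, at 77235651 to 77416025, spanned 180 kb with 190 control peaks over 112450 bp, or 62.3% of its span, and 0 knockdown peaks. The nearest knockdown peak was 1592075 bp away. The other, at 77105876 to 77223200, had 99 control peaks over 57675 bp and 0 knockdown peaks. Of the other antibodies, in knockdown cells the leading domain had 8 uH2A rabbit peaks and 0 peaks of the other 5, and in control cells 25 uH2A rabbit, 8 RING1A, 3 EED and 2 uH2A mouse peaks, with 0 of RING1B and of BMI1.

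The widest control domain was of another kind. It lay on chromosome 14 at 33637226 to 34298100, spanned 661 kb with 408 control peaks over 111425 bp, and was filled to 16.9%. It held 7 knockdown H3K27me3 peaks of 675 bp in all. The domain on chromosome 5 at 1843926 to 2044400 held 2 knockdown peaks of 150 bp in all, against 124 control peaks over 45825 bp. Of the other antibodies it carried 1 RING1A peak in knockdown and 70 in control cells. The uH2A rabbit antibody had 12 peaks there in knockdown and 32 in control cells.

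The remaining leading domains had no knockdown H3K27me3 peak apart from that on chromosome Y. On chromosome 19 at 1668451 to 1796900, 72 control peaks covered 42850 bp. On chromosome 6 at 1264926 to 1399900, 103 control peaks covered 40825 bp. On chromosome 8 at 142644751 to 142765350, 117 control peaks covered 37650 bp. These places, together with chr16:86307026-86401775 and chr10:134837301-134925375, had 0 EED and 0 RING1A peaks in knockdown cells. The uH2A rabbit antibody had between 3 and 11 peaks in each of them in knockdown cells, against 7 to 21 in control cells.

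The domain on chromosome Y at 58819426 to 58917525 was the exception among the 10. It had 132 knockdown and 135 control H3K27me3 peaks. Knockdown peaks covered 65425 bp of it and control peaks 49300 bp, and 94.2% of the control length was covered in knockdown cells too. In knockdown cells it held 139 RING1B, 123 BMI1 and 32 RING1A peaks, against 63, 127 and 55 in control cells. Neither EED nor either uH2A antibody had a peak there in either kind of cell.

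The second comparison asked which control peaks and domains were still marked. Of 35368 control H3K27me3 peaks, 3.81% overlapped a knockdown H3K27me3 peak by at least 1 bp. Across the control peaks of the other 6 antibodies the same count was 12.8%. Their knockdown lists were larger beside their control lists, 31927 against 155979 peaks in all, which alone can raise this share. By length, the share kept was 2.08% for control peaks of 75 bp (1.67 to 2.57), 5.45% for 325 to 500 bp (4.79 to 6.15) and 4.24% above 1000 bp (3.25 to 5.42). So long control peaks, which can meet another peak more easily, were not kept more often than those of middle length. With the control list limited to its tallest peaks, as many as in the knockdown list, the share kept was 10.8%.

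Of the 7188 control domains, 4.74% held a knockdown peak, and 9.94% did so with the lists at equal numbers. The share was 4.22% for single peaks (3.48 to 5.06), 3.66% for 2 to 4 peaks (2.98 to 4.45), 4.58% for 5 to 9 peaks (3.43 to 5.98), 8.04% for 10 to 19 peaks (5.88 to 10.7) and 13.9% for 20 or more (10.1 to 18.4). A domain with a wider span has more room for a knockdown peak, so the length kept is given beside it. Of the covered length of control domains of 20 or more peaks, 4.96% was also covered in knockdown cells. It was 1.49% in domains of 5 to 9 peaks and 3.71% in single peaks. The value for 20 or more peaks, 185.6 kb over 288 domains, includes the chromosome Y domain described above. There 94.2% of 49300 bp was kept. Seen from the other side, 36.8% of the 892 knockdown domains held a control peak, and the share was 23.8% for single peaks (20.2 to 27.7) and among domains of 20 or more peaks 45 of 50 did so (78.2 to 96.7%). Of the 1936 control domains with at least 5 peaks, 1807, or 93.3%, had no base of their control peaks in common with a knockdown peak.

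Among control domains of at least 5 peaks, the 5 with the highest share kept spanned between 3.08 and 34.4 kb and were covered over 100% of their control length. They were chrX:61686626-61721050, chrY:13464826-13489175, chr5:17582651-17599375, chr7:56438251-56441325 and chr19:37772126-37784700. With all control bases kept, knockdown peaks could not cover less than control peaks in them, so that order follows from how the 5 were picked. On chromosome X they covered 10675 bp against 3775 bp, on chromosome Y 7100 against 3150 bp, and on chromosome 5 7350 against 3050 bp. All 5 held knockdown peaks of RING1A, RING1B and BMI1, and the one on chromosome X had 42 RING1B peaks in knockdown and 34 in control cells.

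The third comparison asked where the residual peaks lay. Of 4205 knockdown peaks, 32.4% lay on a control H3K27me3 peak. Over the other 6 antibodies, whose lists differ in size, 65.0% of knockdown peaks lay on a control peak of their own. With as many control as knockdown H3K27me3 peaks the share was 12.4%, and counting control peaks within 1000 bp it was 44.1%. A further 13.96% lay between the peaks of a control domain. Within 10 kb of a control domain lay 18.98%, at 10 to 100 kb 21.6%, and at over 100 kb 13.1% (12.1 to 14.2). The median distance to the nearest control peak was 2100 bp over all knockdown peaks and 10775 bp over those off control peaks. The share inside control domains was thus 46.3% with joining within 10 kb, 38.4% with 3 kb and 34.1% with 1 kb. With as many control as knockdown peaks it was 16.5%.

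Residual peaks on control peaks were longer and ranked higher by the deposited height. Their median length was 225 bp, against 150 bp off control peaks, and their median rank by height within the knockdown list was at the 71.1 percentile, against 43.2. This rank places peaks with a listed height of 0, 16.1% of the knockdown list, at the bottom, and what a height of 0 stands for is not known. The share on a control peak was 16.8% for knockdown peaks of 75 bp (13.8 to 20.03), 28.6% for 175 to 200 bp (25.4 to 31.9), 57.8% for 325 to 500 bp (52.7 to 62.8) and 93.2% for the 44 peaks above 1000 bp (81.3 to 98.6). Bases covered in both kinds of cell came to 321.65 kb, which was 35.9% of the knockdown and 3.08% of the control covered length.

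The 50 dense knockdown domains, called knockdown clusters here, were picked by their number of knockdown peaks once the data had been seen. They spanned 3.11 Mb, or 0.103% of the span between the first and last peak of each chromosome, and had a median span of 51.3 kb. They lay on 16 chromosomes, with 8 on chromosome 1, 5 each on chromosomes 2 and Y, and 4 each on chromosomes 4, 5, 8 and 21. Of the 50, 45 held a control H3K27me3 peak and 5 had none. Inside them were 2137 knockdown and 989 control peaks, and 84.9% of those control peaks were kept. Since the clusters were picked on the knockdown list, these are descriptions only.

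The cluster with the most covered length was the chromosome Y domain described above. The next, on chromosome 8 at 86726676 to 86840725, had 138 knockdown peaks over 37425 bp and 44 control peaks over 7025 bp. On chromosome 4 at 49139076 to 49337100, 141 knockdown peaks covered 36925 bp and 80 control peaks 20750 bp. On chromosome 16 at 46386351 to 46435500, 60 knockdown peaks covered 31175 bp and 55 control peaks 23925 bp. On chromosome 1 at 161411376 to 161441975, 35 knockdown peaks covered 21050 bp, against 20 control peaks over 27150 bp. This was the only one of the 5 in which control peaks covered more, but the 5 were picked on their knockdown length, which favours the knockdown side. Together the 5 held 21.5% of the knockdown covered length, and the 5 leading control domains held 3.61% of the control length. These shares are not alike, since the 5 are out of 892 knockdown and 7188 control domains. A fixed number of domains can take a larger share of a shorter list.

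Outside the knockdown clusters 2068 knockdown and 34379 control peaks remained, a ratio of 0.0602 (0.0575 to 0.0629), with a ratio of covered length of 0.0341. There 1.47% of control peaks were kept (1.35 to 1.61), and 25.2% of knockdown peaks lay on a control peak (23.4 to 27.2). A split that does not use H3K27me3 gave the same order. Windows of 100 kb, with their neighbours, in which at least 2 of the other antibodies had a peak over 10 times their median height held 17.5% of knockdown and 1.37% of control H3K27me3 peaks. Of the control peaks in those windows 79.8% were kept (76.0 to 83.3), and of those outside 2.75% (2.58 to 2.93). No input library was analysed here, and whether these places give signal with any antibody was not tested.

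By chromosome, the control mark was densest on chromosome 19, with 0.354 kb covered per Mb in knockdown and 10.9 kb per Mb in control cells. Chromosome 17 had 0.265 and 7.47 kb per Mb, and chromosome 20 had 0.115 and 6.95. Control density was lowest on chromosome X, with 0.200 kb per Mb in knockdown and 0.770 in control cells, followed by chromosome Y (1.97 and 1.35) and chromosome 13 (0.0109 and 1.503). The knockdown order was different. After chromosome Y the densest were chromosome 21, with 1.36 kb per Mb in knockdown and 3.35 in control cells, and chromosome 22, with 0.747 and 4.54. Chromosomes 6 and 12 had, with chromosome 13, the least, 0.0132 and 0.0144 kb per Mb in knockdown cells.

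The ratio of peak number over 24 chromosomes lay between 0.00939 on chromosome 12 and 1.33 on chromosome Y, with a median of 0.0762. Chromosome 12 had 15 knockdown and 1598 control peaks, chromosome 6 had 17 and 1703, and chromosome 13 had 8 and 579. None of the 579 control peaks of chromosome 13 was kept, which with counting error allows a share of up to 0.635%. Chromosome Y, with 377 knockdown and 283 control peaks, was the only one of the 24 with a ratio above 1 (1.14 to 1.56), and 67.5% of its control peaks were kept. The ratio was 0.624 on chromosome 21 and 0.287 on chromosome 22. Leaving out the knockdown clusters brought it to 0.982 on chromosome Y (0.745 to 1.29), 0.169 on chromosome 21, 0.0399 on chromosome X and 0.00614 on chromosome 19, where 12 knockdown and 1955 control peaks remained. It was 0.203 on chromosome 22 and 0.161 on chromosome 15.

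**Figure D3:**
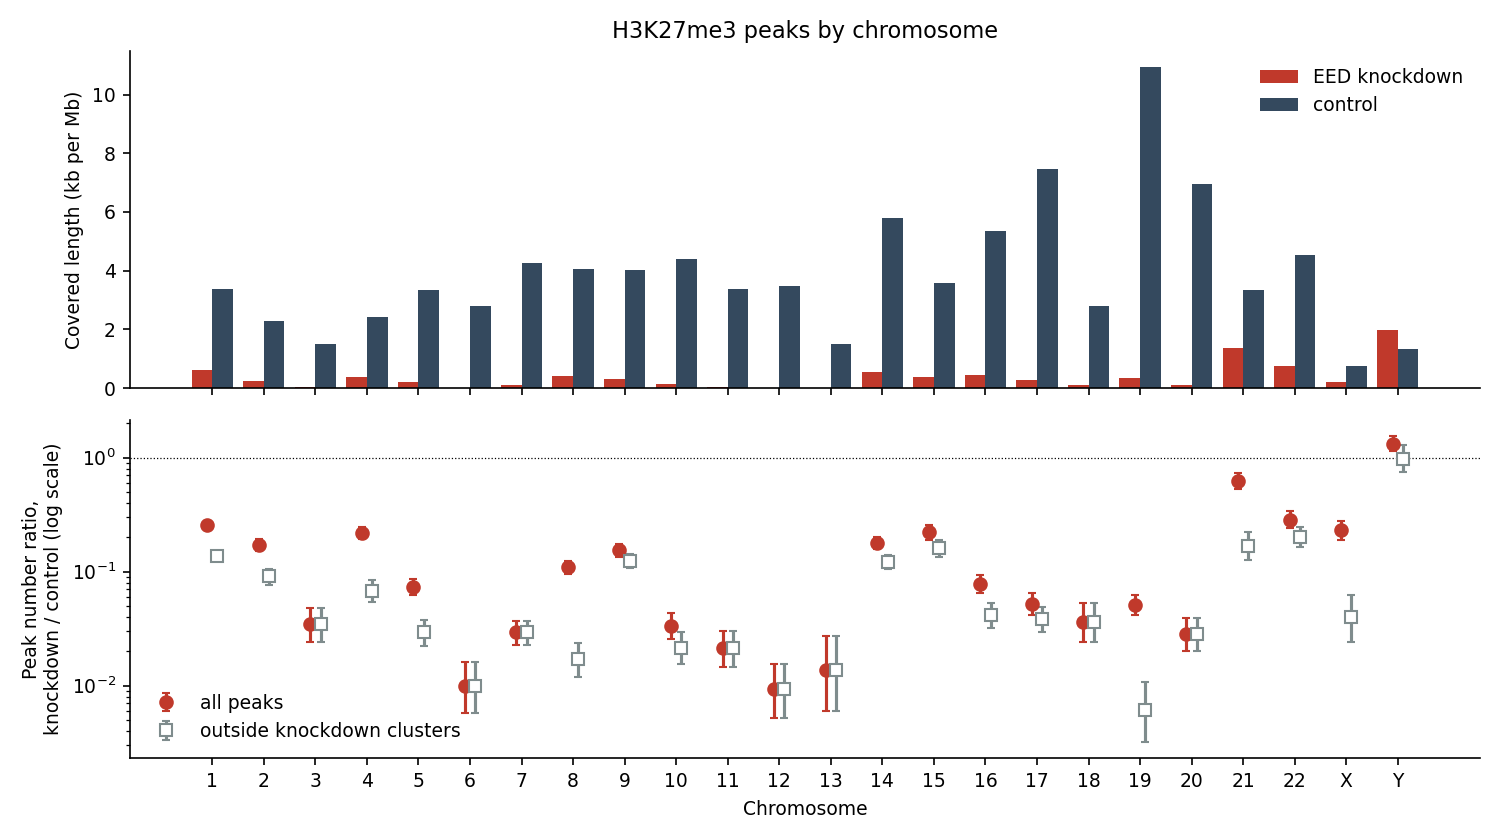
Top, kb covered by H3K27me3 peaks per Mb between the first and last peak of each chromosome in knockdown and control cells. Bottom, the ratio of peak number, knockdown over control, on a log axis, for all peaks and outside knockdown clusters, with exact 95% intervals as bars and 1 library per group. Chromosome Y lies at 1.33 and the lowest ratio over all peaks, on chromosome 12, is 0.00939.

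The fourth comparison asked which other antibodies had a peak at the residual H3K27me3. Of the 4205 knockdown peaks, 82.2% overlapped a knockdown peak of at least 1 of the 6 other antibodies (81.02 to 83.4), and 748 peaks overlapped none. At least 1 other antibody was present at 93.2% of the 1362 peaks on control peaks (91.7 to 94.5) and at 77.0% of the 2843 others (75.4 to 78.5).

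RING1B, a catalytic subunit of PRC1, separated these classes most. Its knockdown peaks met 61.2% of residual H3K27me3 on control peaks and 16.6% of that off control peaks, 44.6 points apart (Newcombe interval 41.6 to 47.5). RING1A, the paralogous subunit, met 67.6% and 47.3%, a difference of 20.3 points (17.2 to 23.4). BMI1, a partner of both, met 84.2% and 66.4%, a difference of 17.8 points (15.1 to 20.3). The differences were smaller for EED (11.2% and 7.70%, 3.46 points, 1.58 to 5.46), uH2A rabbit (10.6% and 6.68%, 3.96 points, 2.15 to 5.91) and uH2A mouse (9.77% and 7.49%, 2.27 points, 0.484 to 4.19). Longer peaks overlap others more easily, and length was not matched between the classes. These smaller differences depended on the setting. Outside high-signal windows the intervals included 0 for EED (1.20 points, -0.846 to 3.45), uH2A rabbit (1.23 points, -0.699 to 3.37) and uH2A mouse (1.48 points, -0.555 to 3.72). With equal numbers of peaks the differences were 6.36 points for EED (3.46 to 9.74), 12.2 for uH2A rabbit (8.94 to 15.8) and 5.29 for uH2A mouse (2.53 to 8.54). For RING1B the difference was 35.3 points outside high-signal windows (31.8 to 38.7) and 38.4 points with equal numbers (33.9 to 42.6). Outside knockdown clusters RING1B and RING1A were closer, 34.5 points (30.0 to 39.0) and 26.7 points (21.9 to 31.3), with BMI1 at 14.3 points (9.95 to 18.3).

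The split by antibody follows the library sets. A peak of RING1A, RING1B or BMI1, from the set of H3K27me3, met 80.7% of residual peaks. A peak of EED or uH2A, from the other set, met 15.8%. In control cells these 2 shares of the H3K27me3 peaks were 11.05% and 9.34%. An effect of the set and one of the antibodies it holds cannot be told apart. Peaks off control H3K27me3 were often at sites where PRC1 proteins had control peaks: 58.8% of them met a control BMI1 peak, 50.2% RING1B and 43.1% RING1A. For knockdown peaks on control H3K27me3 these shares were higher, 76.1% for BMI1, 74.8% for RING1B and 57.3% for RING1A.

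**Figure D4:**
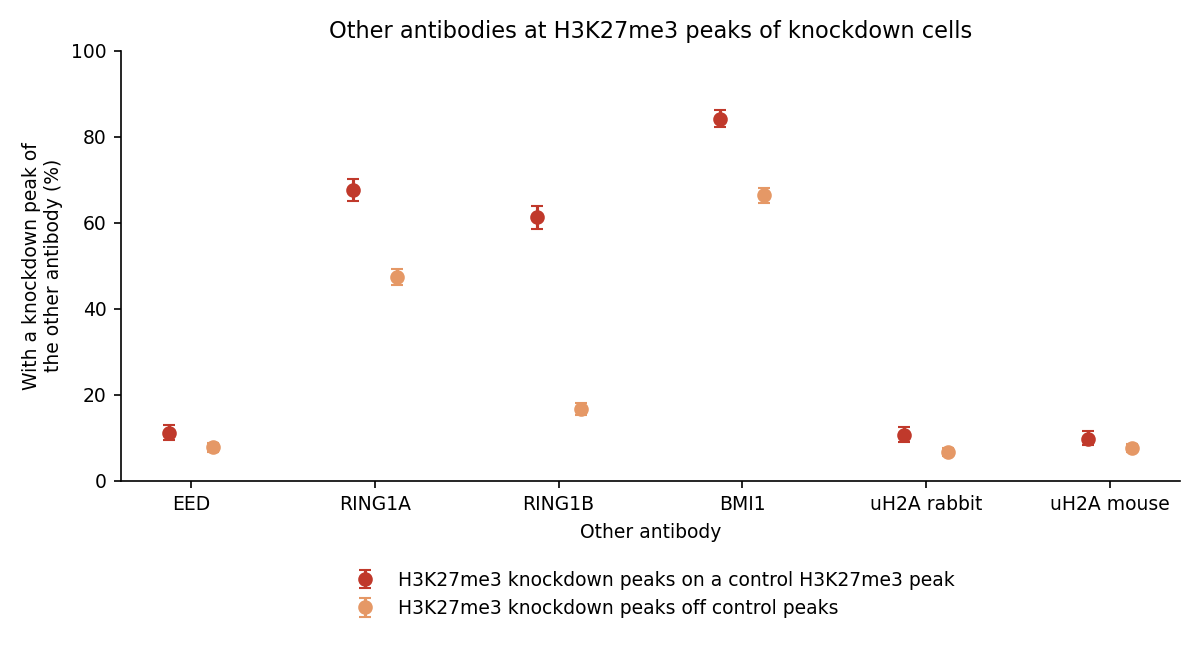
Share (%) of H3K27me3 peaks of knockdown cells that overlap a knockdown peak of each other antibody, for the 1362 peaks on a control H3K27me3 peak and the 2843 off one, with 95% Clopper-Pearson intervals as bars. RING1B shows the widest separation, 61.2% against 16.6%.

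Kept and lost control H3K27me3 peaks also differed in the share with another control peak. A control RING1B peak was present at 74.2% of the 1347 kept and 0.817% of the 34021 lost peaks. For BMI1 the shares were 75.3% and 3.08%, for RING1A 55.4% and 7.24%, and for EED 12.3% and 1.51%. They were 12.03% and 6.98% for uH2A rabbit, and 11.4% and 4.03% for uH2A mouse. RING1B and BMI1 were about equally far apart here, 73.3 points (70.9 to 75.6) and 72.2 points (69.8 to 74.4). Of the kept peaks 840 lay inside the knockdown clusters and 507 outside, against 989 and 34379 of all control peaks. Control RING1B had 584 peaks per Mb inside the clusters and 1.11 outside. The shares at kept and lost control peaks were not computed outside the clusters. Of the 5677 control H3K27me3 peaks that met a control peak of any other antibody, 20.0% were kept (18.96 to 21.1), and of the other control peaks 0.714% (0.621 to 0.816).

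The other antibodies were also counted inside the 51.1 Mb spanned by control H3K27me3 domains, with peaks in knockdown clusters left out. In control cells RING1A had 80.4 peaks per Mb inside domains and 17.1 per Mb elsewhere, RING1B 13.4 and 0.897, BMI1 37.5 and 5.75, uH2A rabbit 70.4 and 7.87, uH2A mouse 43.2 and 10.6, and EED 17.7 and 4.03. All 6 antibodies were therefore denser inside domains of the mark than elsewhere, by the counts of these libraries. The ratio of peak number, knockdown over control, was 0.415 inside domains (0.360 to 0.478) and 0.127 elsewhere (0.113 to 0.142) for RING1B, 0.141 (0.129 to 0.154) and 0.0384 (0.0367 to 0.0402) for RING1A, and 0.403 (0.370 to 0.438) and 0.206 (0.199 to 0.214) for BMI1. For EED it was 0.182 (0.154 to 0.215) and 0.0824 (0.0771 to 0.0880). For uH2A mouse it was 0.264 (0.240 to 0.289) and 0.202 (0.197 to 0.208). The uH2A rabbit antibody had the other order, 0.382 inside (0.359 to 0.407) and 0.420 elsewhere (0.411 to 0.431). In the 288 largest control domains, of 20 or more H3K27me3 peaks, the ratio was 0.0758 for RING1A (0.0603 to 0.0944), 0.121 for EED (0.0838 to 0.169), 0.236 for RING1B (0.152 to 0.356), 0.249 for uH2A mouse (0.209 to 0.296) and 0.270 for BMI1 (0.223 to 0.326). That of uH2A rabbit was 0.396 (0.356 to 0.441).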

How the data were processed

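H3K27me3 ChIP-seq peak lists of 1 knockdown and 1 control library were analysed, with the lists of 6 other antibodies beside them. Libraries were made from 10 to 20 ng of DNA and read at 40 nucleotides, 1 lane each, per the labels' protocols. The submitters' processing notes name Bowtie and hg19. The lists carry the name of the HPeak caller, 1 list per library; nothing in the labels or lists states its settings or an input library. Each deposited list gives a position, a length, an offset, a score and a height. Height is read here as the signal written by the authors' caller, is not comparable between libraries and was used to rank and filter peaks. The deposited score is negative, is not defined in the sources used here and was not used. Depth is unknown, and the precision comes from peak numbers alone. In lists with bare numbers, the 2 numbers that follow the autosomes were taken for X and Y.

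Overlap meant at least 1 bp in common. Domains are runs of peaks with gaps of at most 10 kb, with 1 and 3 kb as alternatives. The ratios of numbers carry exact conditional intervals, shares Clopper-Pearson and differences of shares Newcombe intervals. The limit for a share of 0 is the upper Clopper-Pearson bound. The computations were tested on simulated lists. Regions were named by a rule: the 5 longest peaks of each list, the 10 control and 5 knockdown domains with most covered length, the 5 control domains of at least 5 peaks with the highest share kept, and the 3 chromosomes at each end of density and ratio. The members, rules and tests were chosen with earlier results of these data known. Computations used Python 3.11.15, numpy 2.4.6, pandas 2.3.3, scipy 1.17.1 and matplotlib 3.10.9.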

Additional observations from a re-analysis of the deposited data

How the results depend on the processing

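Every ratio of peak number, covered length and domain number over the whole lists stayed below 1 under all alternatives tried. The point estimates of the differences in shares kept their sign, but the intervals included 0 for EED and both uH2A antibodies outside high-signal windows, and with overlaps of at least 50% for EED (1.59 points, -0.00629 to 3.38) and uH2A mouse (1.21 points, -0.409 to 3.02). With peaks that reached the median height of the control list the ratios of peak number, covered length and domain number were 0.194, 0.0905 and 0.172, the difference in long peaks was -7.37 points, 4.35% of control peaks were kept and 33.3% of knockdown peaks lay in control domains. With heights above 0 the first 2 ratios were 0.104 and 0.0716, the difference in long peaks -3.51 points and the share kept 3.21%. Outside high-signal windows the 3 ratios were 0.0995, 0.0673 and 0.115, 2.75% of control peaks and 3.90% of control domains were kept, and 41.7% of knockdown peaks lay in domains. On autosomes the first 2 ratios were 0.107 and 0.0730, the difference -3.52 points, the share kept 3.20% and the share in domains 43.8%. With equal numbers of peaks 10.8% of control peaks and 9.94% of control domains were kept, and 16.5% of knockdown peaks lay in domains. With overlaps of at least 50% of a peak 3.21% of control peaks were kept and 79.7% of knockdown peaks met another antibody. Within 1000 bp these shares were 4.69% and 91.4%, and 49.5% of knockdown peaks lay in or near domains. Joining within 1 kb gave a domain ratio of 0.139 and 34.1% of knockdown peaks in domains, and within 3 kb 38.4%. Outside knockdown clusters, an alternative added after the data were seen, the first 2 ratios were 0.0602 and 0.0341, the difference -3.93 points, 1.47% of control peaks and 3.86% of control domains were kept, 30.9% of knockdown peaks lay in domains and 77.3% met another antibody. With equal numbers 12.4% of knockdown peaks lay on a control peak. Of 63 further values, 0 reversed, 32 moved and 31 did not. The cut at the median control height left out a larger part of the control than of the knockdown list. The cause of these shifts was not tested. No paired analysis was possible because each group has 1 library. Unknown depth limits all comparisons of peak number, since a shallower library gives fewer peaks.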

Other observations

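The knockdown clusters of H3K27me3 were also crowded with peaks of the PRC1 proteins. They span 0.103% of the assayed length, and held 64.3% of the RING1B peaks of knockdown cells and 35.3% of those of control cells. For RING1A the shares were 38.2% in knockdown and 2.52% in control cells, and for BMI1 31.7% and 8.93%. For EED they were 16.4% and 1.995%, for uH2A mouse 3.11% and 0.782%, and for uH2A rabbit 1.41% and 0.705%. By number, RING1A had 1555 peaks inside them in knockdown and 1411 in control cells, BMI1 1983 and 1856, RING1B 1118 and 1818, and EED 225 and 261. H3K27me3 itself had 2137 and 989, with the clusters picked on the first of these numbers.

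Peaks listed with a height of 0 made up 16.1% of H3K27me3 peaks in knockdown cells and 4.04% in control cells. Among control peaks they were 19.2% of the kept and 3.44% of the lost. Among knockdown peaks they were 16.5% of those on a control peak and 15.8% of the others.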
